A study of Mus musculus with 2 samples.

Results

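The annotated mouse microRNA genes numbered Mir6896 to Mir7094 were described in 2 hearts. These genes entered the catalogue largely as mirtrons. Members were taken by symbol: every deposited row whose GENCODE M21 symbol is Mir followed by a number in that range, with or without a letter or copy suffix. The rule found 201 genes among the 2202 listed microRNA genes, covering 198 of the 199 numbers, and used no measured value. The 2 libraries form 1 group: hearts of B6CASTF1/J males, 25 days old by the age and source labels. This mouse is a hybrid of C57BL/6J and CAST/EiJ strains, with no treatment named, and RNA below 30 nucleotides was selected from total RNA. The labels call the libraries biological replicates 1 and 2 but give both the same donor identifier, so the spread between them may be technical. There is no second condition to compare.

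Most microRNAs are cut from a longer transcript by the nuclear enzyme Drosha before Dicer trims the hairpin to a duplex of 2 arms, called 5p and 3p. A mirtron takes another route: a short intron is spliced out, its lariat is opened by the debranching enzyme, and the intron itself folds into the hairpin that Dicer cuts. In a tailed mirtron only 1 end of the hairpin is a splice site, and the rest of the intron hangs off as a tail that must be removed. Introns usually begin with GU and end with a run of pyrimidines followed by AG, so a mirtron carries those bases at its ends. A mirtron can be made only where its host gene is transcribed and spliced.

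The hairpins of 4 detected genes show both layouts, 2 whole introns and 2 tailed ones. They are given 5′ to 3′ as RNA from RefSeq (GRCm38.p6), in lower case with the intron's first GU and last AG in capitals; the tailed hairpins have only the AG.
Mir7080, chr8:123130106-123130172, plus strand, intron 12 of Cpne7: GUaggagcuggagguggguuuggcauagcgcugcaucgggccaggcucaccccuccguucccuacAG
Mir6944, chr13:55477681-55477776, minus strand, intron 9 of Dbn1: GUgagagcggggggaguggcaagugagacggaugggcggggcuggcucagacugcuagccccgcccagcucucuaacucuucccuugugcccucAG
Mir6990, chr19:6914196-6914286, minus strand, intron 2 of Esrra: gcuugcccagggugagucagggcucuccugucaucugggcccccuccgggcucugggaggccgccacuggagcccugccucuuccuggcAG
Mir7083, chr9:21809941-21810000, minus strand, intron 38 of Dock6: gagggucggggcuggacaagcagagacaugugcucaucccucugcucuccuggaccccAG

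The annotated mature arms of the 9 detected genes follow, since they are the products a heart could hold. The seed, bases 2 to 8 from the 5′ end, is in capitals. No seed is shared between any of these 9 genes.
mmu-miR-7083-5p: uCGGGGCUggacaagcagaga
mmu-miR-7083-3p: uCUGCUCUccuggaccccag
mmu-miR-6990-5p: cCCAGGGUgagucagggcucu
mmu-miR-6990-3p: aGCCCUGCcucuuccuggcag
mmu-miR-6900-5p: uGCCAGGAgaagccuagagccguc
mmu-miR-6900-3p: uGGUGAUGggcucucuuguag
mmu-miR-6929-5p: aGGGAGGAgcagcaucuguga
mmu-miR-6929-3p: cAGGUGCUgucuucuucuuccag
mmu-miR-7080-5p: gUAGGAGCuggagguggguuugg
mmu-miR-7080-3p: cAGGCUCAccccuccguucccu
mmu-miR-6934-5p: uUGGUGGAgacagcaagggugg
mmu-miR-6934-3p: aCCUCUGCuccugccccaccag
mmu-miR-7051-5p: uCACCAGGaggaaguuggguca
mmu-miR-7051-3p: uGAGCCACugauuccugugugc
mmu-miR-7052-5p: uGUGGGAAgguggaggccuuu
mmu-miR-7052-3p: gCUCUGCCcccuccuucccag
mmu-miR-6944-5p: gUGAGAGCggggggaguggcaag
mmu-miR-6944-3p: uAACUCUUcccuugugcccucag

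The libraries held 4930853 and 5229819 counts assigned to microRNA genes in replicates 1 and 2, so that 1 count was worth 0.203 and 0.191 CPM, a count scaled to a library total of 1000000. A gene listed at 0 could lie at up to 0.608 and 0.574 CPM, the worth of 3 counts, for counting error only. The heart muscle microRNA genes Mir208a, Mir208b and Mir499 were present, at 1361 and 3562, 191 and 192, and 2933 and 2758 CPM. The summed neuron markers reached 2.03 and 1.15 CPM, with 4 of 6 genes at 0 in both libraries. All 6 share a run of 20 bases with another listed gene, and reads that fit several loci were not assigned. Their low level therefore cannot serve as a tissue check. The liver gene Mir122 was detected, at 25.6 and 16.1 CPM, above every member. The red blood cell genes Mir451a and Mir144 had a summed level of 21812 CPM in the first library and 1161 in the second, so these markers differed between the 2 hearts; the smooth muscle, leukocyte and endothelial lists differed far less (30025 and 36447, 4285 and 4855, and 56393 and 69423 CPM).

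The whole numbered range held 585 counts in replicate 1 and 631 in replicate 2. That is 0.0120% ± 0.000142 of the assigned counts (SD, n = 2), with exact 95% intervals of 0.0109% to 0.0129% and 0.0111% to 0.0130%. As a level, the 201 genes summed to 118.6 and 120.7 CPM. The summed level was therefore nearly equal in the 2 hearts. For scale, Mir1981, a single intron-derived microRNA gene described outside this range, reached 105 and 112 CPM on its own. The counts came from the strand of the gene: 1 count in replicate 1 and 2 in replicate 2 lay on the opposite strand. In bulk tissue, fewer cells that make a microRNA and less of it per cell cannot be told apart.

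Detection at 10 or more counts in both libraries was met by 9 of the 201 genes, 4.48% (exact 95% interval 2.07% to 8.33%). Of the other 2001 listed genes, 347 met it, 17.3%. At a minimum of 1 count the order was the other way. At least 1 count in both libraries was found for 86 members, 42.8%, against 25.4% of the others, and 65 members, 32.3%, stood at 0 in both libraries against 1383 others, 69.1%. At 5 counts the shares were 12.9% and 19.1%, and at 100 counts 0 members and 11.1% of the others remained. The order at 1 count depended on the genes compared. Of the other genes, 1083 share a run of 20 bases with another listed gene, against 4 members, and reads that fit several loci were not assigned to genes. Among the 918 other genes with no such run, a comparison added after the values were seen, 43.8% had at least 1 count in both libraries and 29.3% reached 10. Of the 42 other genes that end within 5 bases of an intron's last base, 25 had at least 1 count in both, 59.5%. Of these 42, 11 reached 10, 26.2% (exact 95% interval 13.9% to 42.0%). At 10 counts the member share was below each of these groups. In the last group the detected genes all carry numbers up to Mir3102. None of its genes with a higher number was detected, a split made after the values were seen. The highest member counts were 39 in replicate 1 and 46 in replicate 2. Between the zeros and the detected genes, 114 members had counts but fewer than 10 in each library, and 13 reached 10 in 1 library alone, 6 in replicate 1 and 7 in replicate 2. Counts were not always found in both hearts: 27 members had counts in replicate 1 only and 23 in replicate 2 only.

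**Figure D1:**
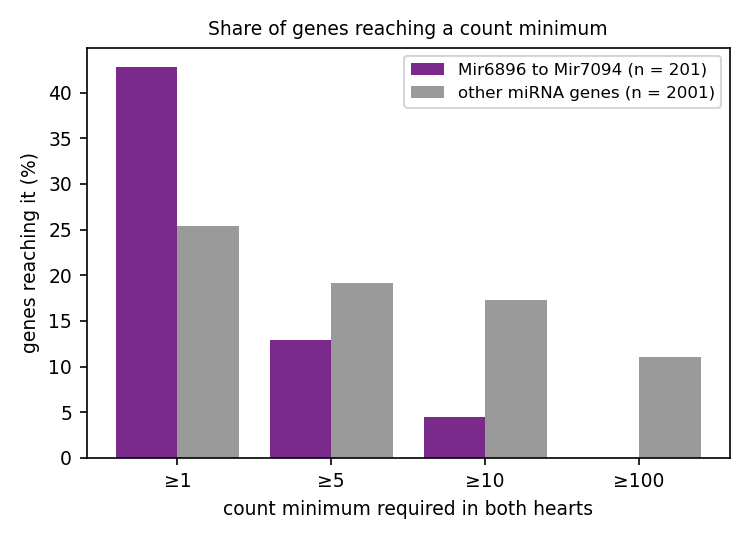
Share of genes (y axis, %) that reached a count minimum in both hearts (x axis, counts), for the 201 members and the 2001 other listed microRNA genes. The member bar is the taller one at 1 count (42.8% against 25.4%, or 43.8% of the other genes that share no run of 20 bases) and the shorter one at 10 counts (4.48% against 17.3%), and it is at 0 at 100 counts.

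**Figure D2:**
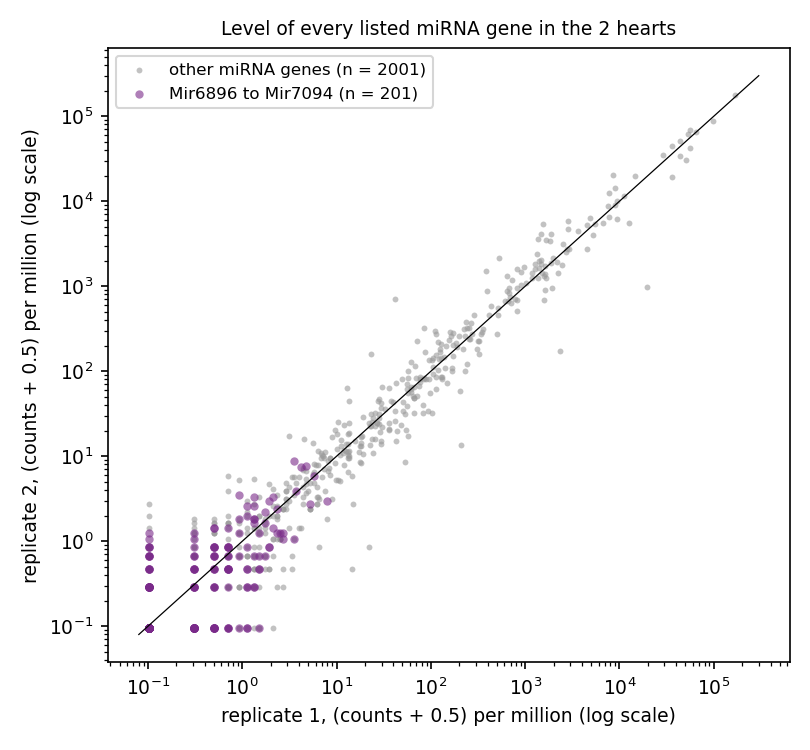
Level of each listed microRNA gene in replicate 1 (x axis) and replicate 2 (y axis), as counts plus 0.5 scaled to CPM on log scales, with the line of equal level. The members lie in the lowest part of the range, below 10 CPM in both hearts, where 1 count more or less moves a point by a visible step.

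The 9 detected members held 191 of the 585 member counts in replicate 1 (32.6%) and 233 of the 631 in replicate 2 (36.9%). Ranked by mean CPM among the 356 detected genes of the table, they took places from 298 to 352. Their median level was 2.28 on the log2 CPM scale (pseudocount 0.5 counts), against 5.84 over all detected genes. All 9 hairpins end exactly at the last base of an annotated intron.

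The detected members are described by the known roles of their hosts, groups made after the values were seen and not tested. The hosts of the undetected members were not sorted by role. The counts of hosts below therefore have no share over all 196 hosts beside them. Of the hosts of detected members, 3 serve mitochondrial energy metabolism. Mir6990 lies in Esrra, the nuclear receptor estrogen-related receptor alpha, which drives genes of oxidative metabolism. It had 17 counts in replicate 1 and 46 in replicate 2, 3.45 and 8.80 CPM. Mir6900 (chr1:92464483-92464542, minus strand) lies at the end of intron 4 of Ndufa10, which encodes a subunit of respiratory complex I, and had 20 and 39 counts, 4.06 and 7.46 CPM. Both were higher in replicate 2. Mir7051 (chr7:43457497-43457569, plus strand) lies in the last intron, 5 of 5, of Etfb, the beta subunit of the electron transfer flavoprotein that feeds electrons from fatty acid oxidation into the respiratory chain. Its 18 and 20 counts, 3.65 and 3.82 CPM, were nearly the same in both hearts.

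Another 3 hosts act on small GTPases or the actin skeleton. Mir7083, in Dock6, an exchange factor that activates Rac and Cdc42, had the highest mean level of all members, 6.16 ± 2.11 CPM (SD, n = 2), from 23 and 40 counts. Mir6934 (chr11:119154076-119154137, minus strand), in intron 8 of Tbc1d16, a GTPase-activating protein for Rab proteins, had 25 and 14 counts, 5.07 and 2.68 CPM. It was one of only 2 detected members with the higher level in replicate 1. Mir6944, in Dbn1, the actin-binding protein drebrin, had 11 and 12 counts, 2.23 and 2.29 CPM, the lowest mean of the detected members.

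The other detected members lie in hosts of varied function. Mir7080 lies in Cpne7, a copine that binds membranes when calcium rises, and had 39 counts in replicate 1 and 15 in replicate 2, 7.91 and 2.87 CPM. Its 39 counts were the highest of any member in replicate 1. Mir6929 (chr11:101419187-101419253, minus strand), in the last intron, 6 of 6, of Ptges3l, a relative of the p23 co-chaperone gene, had 28 and 30 counts, 5.68 and 5.74 CPM, and differed little between the hearts. Mir7052 (chr7:44470347-44470411, plus strand), in intron 4 of the deubiquitinase gene Josd2, had 10 and 17 counts, 2.03 and 3.25 CPM. Replicate 1 stood exactly at the minimum there. Mir6929, Mir7080 and Mir7051 also lie within a second annotated gene on the strand (Gm27029, Gm20388 and Gm45233), and the hairpins of Mir6990, Mir7080 and Mir7051 overlap an exon of another annotated transcript. Host RNA was not measured in these libraries.

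**Figure D3:**
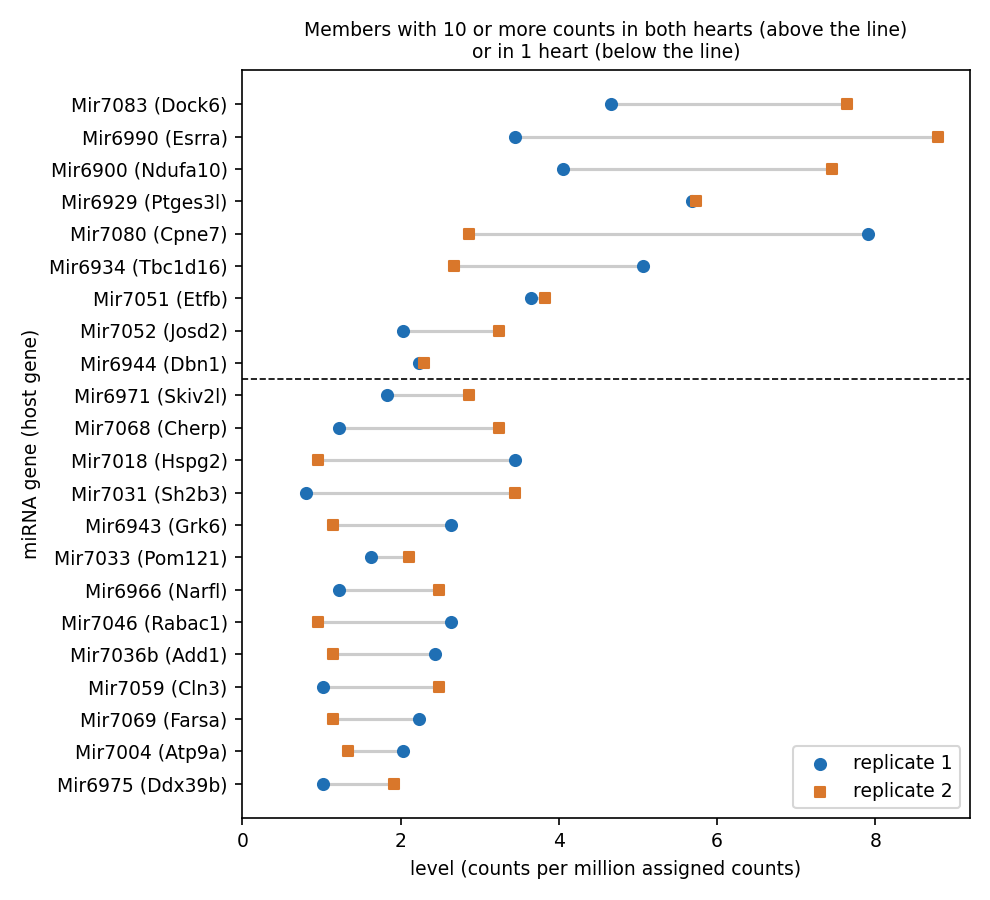
Level in CPM (x axis) of the 22 members with 10 or more counts in at least 1 heart, named with their host genes (y axis), for replicate 1 (circles) and replicate 2 (squares). The 9 genes above the dashed line reached 10 counts in both hearts; the points of Mir6929, Mir7051 and Mir6944 nearly coincide, while those of Mir6990 and Mir7080 lie far apart in opposite directions.

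The levels of each detected gene in the 2 hearts were set against the library totals in a two-sided exact binomial test, and p-values were adjusted (Benjamini-Hochberg) over the 356 detected genes. The test compares 2 libraries, not conditions, and covers counting error only. It called 3 of the 9 members, against 63.5% of all detected genes. Among the 51 other detected genes with summed counts no higher than the highest detected member, 63, it called 9, 17.6%. Mir6990 was 2.55-fold higher in replicate 2 (95% interval 1.43 to 4.75, adjusted p = 0.00113) and Mir7080 2.76-fold higher in replicate 1 (1.49 to 5.38, adjusted p = 0.00107). Mir6900 was 1.84-fold higher in replicate 2 (1.05 to 3.33, adjusted p = 0.0421), a call that was lost with trimmed-mean (TMM) scaling of the library totals (adjusted p = 0.0588) and with no filter on counts (adjusted p = 0.0793). The red blood cell markers above moved between the same libraries. Of the heart muscle markers, the ratio of replicate 2 to replicate 1 was 2.62 for Mir208a, 1.01 for Mir208b and 0.940 for Mir499. The part of any of these markers in the member differences was not tested.

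For the other 6 members no difference was called. The ratio of replicate 2 to replicate 1 was 1.01 for Mir6929 (95% interval 0.583 to 1.75), 1.03 for Mir6944 (0.415 to 2.57) and 1.05 for Mir7051 (0.526 to 2.10). These intervals still admit differences of over 1.7-fold in either direction. For Mir7083 the ratio was 1.64 (0.958 to 2.87), for Mir7052 1.60 (0.693 to 3.92) and for Mir6934 0.528 (0.254 to 1.06). The 2 libraries were within 2-fold of each other for 7 of the 9 members. Of the 9, 7 were higher in replicate 2 and 2 in replicate 1; with TMM scaling Mir6929 and Mir6944, whose ratios are close to 1, fell on the other side. The median log2 ratio was 0.06, against 0.02 over all detected genes, and the median absolute log2 ratio was 0.70, against 0.45.

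Members that reached 10 counts in 1 heart alone add hosts of other kinds. Mir7018 lies in Hspg2, which encodes perlecan, a proteoglycan of basement membranes; its hairpin is the whole of intron 43, and it had 17 and 5 counts. Mir7068 fills intron 4 of Cherp, a nuclear protein linked to splicing and calcium handling, with 6 and 17 counts. Mir7031, in Sh2b3, an adaptor that restrains cytokine receptor signalling, had 4 and 18 counts. Mir7046 in Rabac1, a receptor for prenylated Rab proteins, had 13 and 5 counts. Each of these 4 had more than 2 times as many counts in one heart as in the other. When the test was run with no filter on counts, over the 754 genes with any count, 5 of 136 members (3.68%) were called, against 32.1% of the 754 genes, among them Mir6990 and Mir7080 again, Mir7018 (adjusted p = 0.0299) and Mir7031 (adjusted p = 0.0163). Neither Mir7068 nor Mir7046 was called. The median count over all members was 1 in each library, and a gene with so few counts cannot be called. The 3.68% and 32.1% therefore cannot be compared as a trait of the members.

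The counts of the 2 hearts were closer for Mir6971 in Skiv2l, a helicase that feeds RNA to the exosome (9 and 15 counts), and for Mir7033 in Pom121, a nuclear pore protein (8 and 11 counts). Mir6943 in Grk6, a kinase of G protein-coupled receptors, had 13 and 6 counts, and Mir6966 in Narfl, an iron-sulfur protein assembly factor, 6 and 13. Mir7059 in Cln3, a lysosomal membrane protein, had 5 and 13 counts. These genes fell short of detection in one heart by between 1 and 5 counts. Mir7036b, in Add1, the spectrin-binding adducin 1, had 12 and 6 counts. It is the only member placed inside an intron with neither end near a splice site. It lies 237 bases from the start of a 24255-base intron and overlaps an exon of another annotated transcript.

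Mir7069 in the tRNA synthetase gene Farsa (11 and 6 counts), Mir7004 in the membrane flippase gene Atp9a (10 and 7) and Mir6975 in the helicase gene Ddx39b (5 and 10) complete the 13. Just below were Mir7013 in the lipid kinase gene Pi4kb with 8 counts in both hearts, Mir6980 in Arap3 with 6 and 9, and Mir7019 in Pink1, a kinase that marks damaged mitochondria, also with 6 and 9. At the minimum itself, the lowest detected member in a single heart was Mir7052 with 10 counts, and the nearest member outside was Mir6971 with 9.

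All 201 members lie on the strand of an annotated gene, 196 different hosts in all. None of the 46 genes of a heart muscle list, which holds some sarcomere and calcium-handling genes, hosts a member. Of the 32 genes of a vascular and matrix list, 2 do: Hspg2 with Mir7018, and the receptor gene Notch1 with Mir6996 (0 and 6 counts). Neither member was detected. The 2 lists are not complete: matrix genes outside them, such as Lama5 (Mir7005), Loxl2 (Mir6950) and Ecm1 (Mir7014), also host undetected members. The share of all annotated genes that host a member was not computed. Neither list count can therefore be read as a trait of the range. Chosen after the values were seen, Mir6923 fills an intron of Myh3, the embryonic myosin heavy chain gene, and stood at 0 in both hearts.

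In 5 hosts there are 2 members each, which sets 2 introns of 1 transcript side by side. In Skiv2l, Mir6971 had 9 and 15 counts and Mir6970 0 and 0; Mir6970 shares a run of 20 bases with Gm27471, and reads that fit several loci were tallied apart. In Arap3, a GTPase-activating protein gene, Mir6980 had 6 and 9 counts and Mir6981 0 and 1. In Ankrd52, Mir6915 had 2 and 1 counts and Mir6914 0 and 0. In Srebf1, the regulator of lipid synthesis, Mir6921 had 1 and 0 counts and Mir6922 0 and 1. In Cmip, Mir7077 and Mir7078 were both at 0 in both hearts. In the first 2 of these hosts the members differed by several counts within the same host, and in the last 3 none rose above 2 counts.

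The place of the hairpins was read from the annotation, with an end counted as a splice site when it lay within 5 bases. Since the range was named largely for mirtrons, this is a check of the label. Only the 3′ end lay at an intron end in 173 members, 86.1%, and both ends did in 15, 7.46%. A further 4 had only the 5′ end there, 8 overlapped a host exon, and 1, Mir7036b, lay inside an intron. These classes follow the best-fitting intron of any same-strand transcript. When every transcript is counted, 41 members overlap an exon, Mir7036b among them. Among the 2001 other listed genes, 42 ended at an intron's last base within that tolerance. The exact last base of the intron was the end of 187 member hairpins, 93.0%, against 24 other hairpins, 1.20%. By annotation, then, most of the range is tailed at the 5′ side rather than a whole intron.

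**Figure D4:**
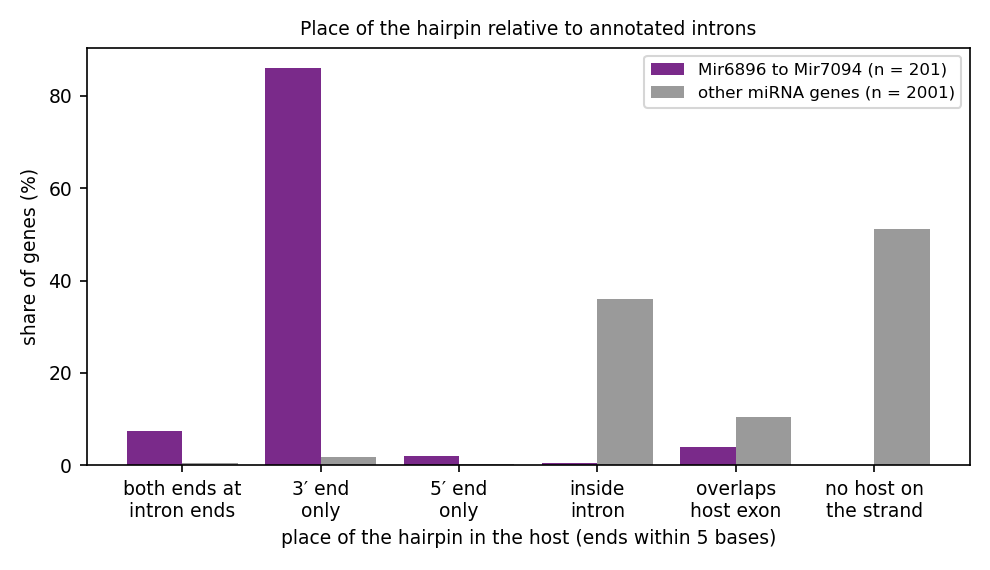
Share of genes (y axis, %) by the place of the hairpin relative to introns of same-strand transcripts (x axis), for the 201 members and the 2001 other genes. The members stand almost wholly in the class with only the 3′ end at a splice site (86.1%), while 51.1% of the others have no host on their strand.

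Detected members were found in both main layouts. Of the 173 one-ended members 7 were detected, 4.05%, and of the 15 whole-intron members 2, Mir7080 and Mir6944. Whole introns were short, 67 to 137 bases, while the introns of the 173 had a median of 569 bases and a tail before the hairpin of 505 bases at the median, from 7 to 36205. Some detected members follow long tails: Mir6990 follows a tail of 5776 bases and Mir6900 one of 2838. The median intron length was 932 bases for the detected members, 563 for those at 0 and 479 for all.

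The 15 whole-intron members spread over the full range of counts. Beside Mir7080, Mir6944, Mir7018 and Mir7068, counts were found for Mir7091 in Dnase1l1 (6 and 1), Mir6958 in Dennd6b (3 and 3), Mir7058 in Lat (2 and 0) and Mir6981 (0 and 1). The other 7 stood at 0 in both hearts: Mir6923, Mir6970, Mir6974 in Lta, Mir7060 in Fbrs, Mir7070 in Fbxw9, Mir7082 in Raver1 and Mir7088 in Mst1. Lat and Lta are T cell and lymphocyte genes. In all 15 the intron ends in AG, and in 14 it begins with GU; the exception is Mir7088, whose intron begins with GC. The members with only the 5′ end at a splice site were all low: Mir6927 in Mllt6 had 3 and 2 counts, Mir6936 in Sirt7 3 and 0, Mir6977 in Ptprs 0 and 1, and Mir6973b in Gfra4 1 and 0.

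A few annotated hairpins run past the splice site. Mir6973b and 7 of the 8 members of the exon class, Mir6901, Mir6903, Mir6904, Mir7029, Mir6914, Mir6925 and Mir6950, end 6 or 7 bases beyond the intron's last base, and Mir7010 ends 1 base beyond. In all 9 the intron's last 2 bases are AG, inside the hairpin. Their counts were low, at most 5 in a library. The last of the exon class is Mir7025 in Pdgfra, a growth factor receptor gene, which starts 30 bases before an intron and had 4 and 3 counts.

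The hairpins were short and rich in G and C beside the rest of the catalogue. Their median length was 66 bases against 93, and their median GC content 57.1% against 50.0%. Folded with RNAfold, their median free energy was −38.9 kcal/mol per 100 bases, against −36.5 for the other listed genes. The other genes that end within 5 bases of an intron's last base were close to the members in all 3 measures, at 67 bases, 56.9% and −38.9. The median free energy was also −38.9 for the 720 other genes inside introns. It was −39.5 for the 918 other genes that share no run of 20 bases, so energy did not set the members apart from these groups. The detected members folded more stably than the median member: the value was −58.1 for Mir6944, −53.7 for Mir6929 and −40.3, the weakest of the 9, for Mir6934.

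Mature arms were listed by RefSeq for 185 of the 201 members, 354 sequences with 177 of each arm. Of the 3p arms, 137 end in AG, 77.4%, against 59 of 525 other 3p arms, 11.2%. The 3p arm ends at the intron's last base in 135, 76.3%, and 1 to 5 bases before it in 34. The arms shown above carry the pattern: 7 of the 9 3p arms end in the splice site's AG, while mmu-miR-7051-3p and mmu-miR-7080-3p stop before it. Cytosine and uracil made up 72.2% of the 3p arm at the median, against 54.5%, and guanine 43.5% of the 5p arm, against 27.3%. These contrasts are with all other listed genes. Among other genes with both hairpin ends at intron ends, 8 of 8 hairpins also end in AG. With only the 3′ end there, 16 of 34 other hairpins do, against 172 of 173 member hairpins. The arms of those other genes were not compared separately.

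By position, the third base from the 3′ end of the 3p arm, which precedes the AG, was a pyrimidine in 90.4% of member sequences and 59.4% of others. The fourth base showed little of this, 63.8% against 61.9%, and the fifth and sixth were again at 90.4% and 89.3%. On the 5p arm, guanine stood at base 4 in 63.3% of member sequences and 33.0% of others. Base 4 is within the seed. Of the 13 5p arms listed for whole-intron hairpins, 11 begin at the intron's first base and 10 begin with GU, as mmu-miR-7080-5p and mmu-miR-6944-5p do above.

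**Figure D5:**
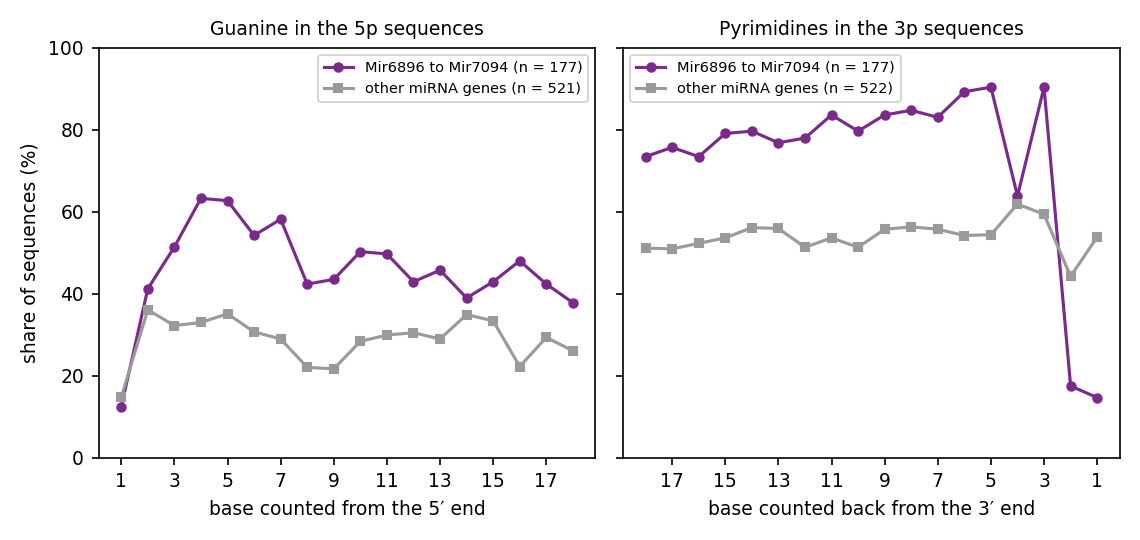
Share of annotated arms (y axis, %) with guanine at each base of the 5p arm, counted from the 5′ end (left), and with cytosine or uracil at each base of the 3p arm, counted back from the 3′ end (right), for members and other microRNA genes. The member lines lie above the others over most positions, with the drop at the last 2 bases of the 3p arm (14.7% and 17.5%) where the AG stands.

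Seeds were mostly private to 1 gene. The 354 arms hold 325 different seeds, of which 25 occur in 2 or more members. The seed shared most widely among members with counts above 10 in a heart is printed here in 3 arms, which differ outside it.
mmu-miR-7018-3p: uCACCCUGcugccggcuugcag
mmu-miR-7068-3p: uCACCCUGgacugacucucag
mmu-miR-7023-3p: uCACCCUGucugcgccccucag
The first 2 are whole introns of Hspg2 and Cherp, with 17 and 5 and with 6 and 17 counts. Mir7023, a tailed member in Pik3cd, a lipid kinase gene of leukocytes, stood at 0 in both hearts. The seed of mmu-miR-6990-5p, shown above, recurs in mmu-miR-7032-5p, whose gene in Hip1r had 5 and 0 counts.

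Of the member seeds, 40 also occur in a microRNA gene outside the range, and 17 in one that was detected in these hearts. In those 17 the other gene was the more abundant by level. They were picked because the other gene was detected, so this order was largely fixed by the choice. Among shared seeds whose outside gene was not detected, the order went both ways. The seed of mmu-miR-6966-5p occurs in mmu-miR-542-5p, whose gene reached 510 CPM, against 1.85 CPM for Mir6966. That of mmu-miR-7069-3p occurs in mmu-miR-18a-3p, at 107 CPM against 1.69 for Mir7069, and that of mmu-miR-6932-3p and mmu-miR-7039-3p in the 3p arms of miR-26a-2 and miR-26b, where the more abundant gene reached 27574 CPM. Counts are per gene, so neither the arm nor the part of the hairpin that the reads covered is known.

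Among intron-derived genes numbered outside the range, Mir1981 in Marc2 had 517 and 585 counts, 108 ± 4.96 CPM (SD, n = 2), 17.6 times the highest member. Mir877, in the ribosome-associated ATPase gene Abcf1, reached 35.5 ± 8.68 CPM and Mir702, in the collagen-modifying enzyme gene Plod3, 12.4 ± 1.63 CPM. Mir1224 in Vwa5b2 had 32 and 4 counts and did not reach the minimum in replicate 2. These 4 genes were listed with earlier results known. The 42 other genes that end within 5 bases of an intron's last base run wider. Mir3102, a whole intron of Arhgef17, had 711 and 1026 counts, 170 CPM on average. Mir3097 (5.15 CPM), Mir3076 (4.40), Mir1231 (2.26) and Mir1982 (2.07) were detected at levels like those of the detected members. The highest member, Mir7083, stood at 6.16 CPM, and Mir499 at 462 times its level.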

How the data were processed

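MicroRNA-seq libraries came from total RNA of 2 hearts, size-selected below 30 nucleotides, per the labels. What the authors deposited are raw counts per microRNA gene in mm10 with GENCODE M21, per the text beside the files; aligner and counter: not given in the sources used here. Reads from CAST alleles were matched to a C57BL/6J genome. A description line gives the age as months; the age label's days were used. The column for the gene's strand was used. Of all reads, 37.3% and 36.4% were assigned to a gene, 41.6% and 37.4% fit more than 1 locus, 15.0% and 20.2% did not map, and 6.03% and 6.00% mapped to no microRNA gene; these last 3 classes were left out of totals and tests. No library column of another series was present (0).

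CPM are counts scaled to 1000000 assigned counts. Hosts and introns came from all same-strand GENCODE M21 transcripts, mature and printed sequences from RefSeq (GRCm38.p6), whose hairpins equal GENCODE's in place and bases for all 180 members listed in both. Number 6967, whose loci carry other symbols, is not covered. Free energies came from ViennaRNA 2.7.2. The binomial test and Clopper-Pearson intervals at 95% used scipy 1.17.1. The test was checked on simulated counts that held counting error only. That check cannot show how the test behaves under any further spread between libraries. The binomial test replaces edgeR's quasi-likelihood test, which has no contrast to test in 1 group. Scaling alternatives used edgeR 4.0.16 (TMM) and DESeq2 1.42.0. Intervals cover counting error only, since no molecular identifiers are named.

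Named with values were all members with 10 counts in both libraries, up to 10 by counts with 10 in exactly 1, the next 3, those called different among detected genes, and members hosted by the heart muscle list; others are named to complete a small class or count, after their values were seen. Members and lists were chosen with earlier results of these data known, so no list was tested. The other member called with no filter on counts is not reported here.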

Additional observations from a re-analysis of the deposited data

How the results depend on the processing

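Leaving out either library changes what detection means, since it then asks for 10 counts in 1 heart: 15 to 16 members met that. The detected count was 86, 26 and 0 at minimums of 1, 5 and 100 counts, and 24 at 1 CPM in both libraries; with a minimum of 1 count, 6 whole-intron members were detected. The share of assigned counts was 0.0165% in the unstranded column, whose assigned total is smaller (3588090 and 3791591 counts), and 0.00441% of all reads. With no filter, 5 members differed between the libraries, 3.68% of those tested against 32.1% of all genes tested. These 2 shares cannot be compared, since a gene with very few counts, as many members had, cannot be called. The median log2 level of the detected members was 2.55 with a pseudocount of 1 CPM, −0.36 with a minimum of 1 count, 2.75 in the unstranded column, and 1.65 to 1.83 with either library left out, where more members of lower level enter. With TMM scaling the log2 ratios of Mir6929 and Mir6944, neither called, became -0.0335 and -0.0111. Of the alternative values, 15 moved, 2 changed sign, 1 lost its call (Mir6900 with TMM, which takes the called members from 3 to 2) and 41 did none of these. Outside this tally, Mir6900 also lost its call in the binomial test with no filter on counts (adjusted p = 0.0793). The test needs both libraries, so no value without a replicate exists for it. No paired analysis was possible because there is 1 group. The minimum of 10 counts equals 2.03 and 1.91 CPM; levels given below it rest on few counts.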
